A study of Mus musculus with 28 samples.

Results

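The genes described here are 43 mouse genes of the lysosome and of its proton pump, out of 55450 genes in the deposited expression table. They were taken by their symbol, as V-ATPase subunits (17 genes with their 2 accessory proteins), lysosomal membrane proteins (4 genes), acid hydrolases other than cathepsins together with the proteins that help them or carry lipids (20 genes), and the transcription factors Tfeb and Tfe3. The rule used symbols, not values, although earlier results of these data were known when the genes were chosen.

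Lysosomes are the acidic organelles in which cells break down proteins, glycans and lipids taken up from outside or delivered by autophagy. The V-ATPase keeps them acidic: a cytosolic V1 sector hydrolyses ATP and turns a rotor, and a membrane V0 sector carries protons across the membrane. The hydrolases work at the low pH that results, and glycoproteins such as LAMP1 and LAMP2 line the membrane. Transcription factors of the MiT family (TFEB, TFE3, MITF and TFEC) bind an E-box with the core TCACGTGA, the CLEAR element, in the promoters of many of these genes. Macrophages, which digest what they engulf, are known for their many lysosomes.

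The cells were C10, a Pre-B line of the mouse derived from the HAFTL line that carries C/EBPαER, rat C/EBPα fused to the hormone-binding part of the estrogen receptor. All groups were of this 1 line, so uninduced cells carried the transgene too. RNA-seq libraries came from uninduced cells (0h) and from cells 1h, 12h and 48h after the addition of 100 nM β-estradiol, IL-3 and CSF-1, with 3 biological replicates at each time. Promoter Capture Hi-C (PCHi-C), which lists the restriction fragments that touch promoter fragments, gave 1 list per time point, each from 2 merged replicates. Induction thus means β-estradiol and both cytokines together, and their parts cannot be told apart.

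Expression was deposited as TPM, a gene's share of all transcripts in the library after correction for length, and TPM keeps no record of depth. The paper refers to its supplement for sequencing depth, which was not used here. A pair of genes at a ribosomal RNA locus held 70.3% to 82.9% of all TPM, depending on the library and with the lowest share in replicate 3 at each of the 4 times, and the values were therefore divided by a median-of-ratios factor for each library, from 0.842 to 1.03 for uninduced cells, 1.33 to 1.56 after 1h, 1.07 to 1.35 after 12h and 0.625 to 0.751 after 48h. Levels below are this scaled TPM, listed in the order of replicates 1, 2 and 3, and fold changes are log2 differences of scaled TPM plus 0.1, with their standard error, from limma on the 16415 genes whose mean TPM was 0.1 or more. A gene was called higher or lower at a Benjamini-Hochberg adjusted p under 0.05. By Euclidean distance all 12 libraries lay closest to a replicate of the same time. Of 10 Pre-B markers, 9 were lower at 48h, and their summed level went from 312 to 339 at 0h to 44.4 to 52.0. Of 10 macrophage markers, 9 were tested and 8 were higher at 48h, with a summed level of 4.36 to 5.54 at 0h and 903 to 1112 at 48h. Most of the 48h sum was Mmp12, with 784, 803 and 545. Adgre1 (F4/80), a defining macrophage marker, stayed near 0 with a mean of 0.129. Granulocyte markers summed to 9.04 to 12.6 at 12h and to 2.58 to 6.15 at 48h, and the 3 of 8 that were tested (S100a8, Camp and Prtn3) were higher than at 0h at both times, while Elane, Mpo and S100a9 were listed at 0 at 48h. The T cell, erythroid, dendritic and mast cell lists each summed to at most 0.671 in any library. The part of these markers in the results below was not tested. In bulk RNA, fewer cells of a type and less RNA per cell cannot be told apart.

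The promoters of these genes are shown first, since they are where the MiT factors are known to bind. RefSeq (GRCm38.p6) promoters, from 250 bases before to 50 bases after the start site, were matched for 35 of the 43 genes (41 promoters). TCACGTGA, a palindrome and so the same on both strands, occurred in 5 of the 41 promoters (12.2%) and in 0.974% of all 32851 mouse promoters of the table. The shorter E-box CACGTG, which every TCACGTGA contains, occurred in 12 (29.3%) against 7.15%. The C/EBP-like letters TTGCNNAA, searched on both strands because C/EBPα is the induced factor, occurred in 5 (12.2%) against 10.8%. The last motif was added after other values had been seen. The windows of 60 bases with TCACGTGA in capitals are shown for the 5 genes that hold it, 5′ to 3′ on the strand of the gene.
Atp6v0d1 (chr8:105566045-105566104, minus strand): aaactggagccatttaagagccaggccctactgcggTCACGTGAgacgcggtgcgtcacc
Atp6v0e (chr17:26676356-26676415, plus strand): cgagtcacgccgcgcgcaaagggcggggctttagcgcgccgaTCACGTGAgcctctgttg
Atp6v1a (chr16:44139358-44139417, minus strand): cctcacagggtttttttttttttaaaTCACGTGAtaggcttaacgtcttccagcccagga
Gla (chrX:134601184-134601243, minus strand): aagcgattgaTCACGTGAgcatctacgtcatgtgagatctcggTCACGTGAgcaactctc
Mcoln1 (chr8:3500447-3500506, plus strand): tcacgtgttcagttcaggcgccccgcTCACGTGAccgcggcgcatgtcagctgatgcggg

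The first base of TCACGTGA lay at -4 from the start site in Atp6v0d1, at 2 in Atp6v0e, at -46 in Mcoln1, at -132 in Atp6v1a and at -228 in Gla, which has 2 matches. Lamp1 and Atp6v0b are shown for their repeated E-boxes, 4 in Lamp1 and 2 in Atp6v0b, with CACGTG in capitals. Npc2 and Ppt1 are shown for a C/EBP-like match, in capitals, in genes with large increases.
Lamp1 (chr8:13159096-13159155, plus strand): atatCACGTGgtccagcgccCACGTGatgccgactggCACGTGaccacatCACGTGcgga
Atp6v0b (chr4:117887324-117887383, minus strand): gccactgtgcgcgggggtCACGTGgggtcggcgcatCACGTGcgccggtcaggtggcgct
Npc2 (chr12:84773104-84773163, minus strand): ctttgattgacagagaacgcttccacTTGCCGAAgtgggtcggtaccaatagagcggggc
Ppt1 (chr4:122836126-122836185, plus strand): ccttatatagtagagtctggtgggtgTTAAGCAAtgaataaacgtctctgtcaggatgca

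These are matches of letters, and binding was not measured here. Of the tested genes with a matched promoter, the 11 with CACGTG had a median log2 fold change of 1.61 at 48h (8 of 11 higher) and the 22 without it had 1.61 (18 of 22 higher). All 5 with TCACGTGA were higher, with a median of 1.68, and 21 of the 28 without it were, with a median of 1.40. With TTGCNNAA 3 of 5 were higher (median 1.98), and without it 23 of 28 (median 1.56). These differences were not tested. Atp6v0a1, Grn and Psap, the genes with the largest increases, held none of the 3 motifs in this window. For Atp6v0a1 the window searched was chr11:101010148-101010447, downstream of the 5′ end of the gene in GENCODE (101009452). The sequence around that 5′ end was not searched.

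At 48h the lysosomal genes were higher as a group. Of the 43 genes, 40 passed the expression filter, and 31 of these (77.5%) were higher than at 0h, against 24.6% of all 16415 genes, while 1 (2.50%) was lower, against 21.9%. All 40 tested genes had a mean TPM of at least 1.15, and among the 9331 genes whose mean reached 1 the test called 2664 higher and 3086 lower. Beyond a 2-fold change, 26 genes were higher, against 19.7% of all genes. Their median log2 fold change was 1.56, against 0.0761 for all genes tested. With the TPM as deposited, on which the median of all genes moved to -0.18, 23 were higher and 1 lower, and all genes split into 2611 higher and 4466 lower. The 8 calls lost there were those of Atp6v0a2, Atp6v1c1, Atp6v1e1, Mcoln1, Glb1, Gusb, Man2b1 and Tfe3. With replicates 1 and 2 alone 27 were higher and 1 lower, without the calls of Atp6v0a2, Mcoln1, Man2b1 and Tfe3.

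The increase began between 1h and 12h for most genes. At 1h, 2 genes were higher (5.43% of all genes were) and 3 were lower (4.87%). At 12h, 22 were higher (16.0%) and 1 was lower (14.4%), with a median log2 fold change of 0.75 against 0.0707 for all genes. From 1h to 12h, 25 genes increased (11.3%) and 1 decreased (8.79%), and from 12h to 48h another 24 increased (10.6%) and 0 decreased (11.9%) in the limma test, where Arsa and Tfe3 (2 of 40) were lower at an unadjusted p under 0.05. Of the 31 genes higher at 48h, 18 increased at both of these steps, 4 at the first alone (Atp6v0d1, Atp6v1e1, Glb1 and Tfe3), 6 at the second alone (Atp6v1a, Atp6ap2, Gusb, Man2b1, Gla and Npc1) and 3 passed the test at neither step. The direction of the early and late steps rested on the scaling. With the TPM as deposited, the median of all genes moved by 0.59 at 1h, and all 16 genes called at 1h were higher. All 16415 genes then split into 3955 higher and 231 lower. From 12h to 48h, where that median moved by -0.62, 9 of the lysosomal genes increased and 7 decreased. Of all 16415 genes, 673 increased and 5205 decreased at that step.

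**Figure D1:**
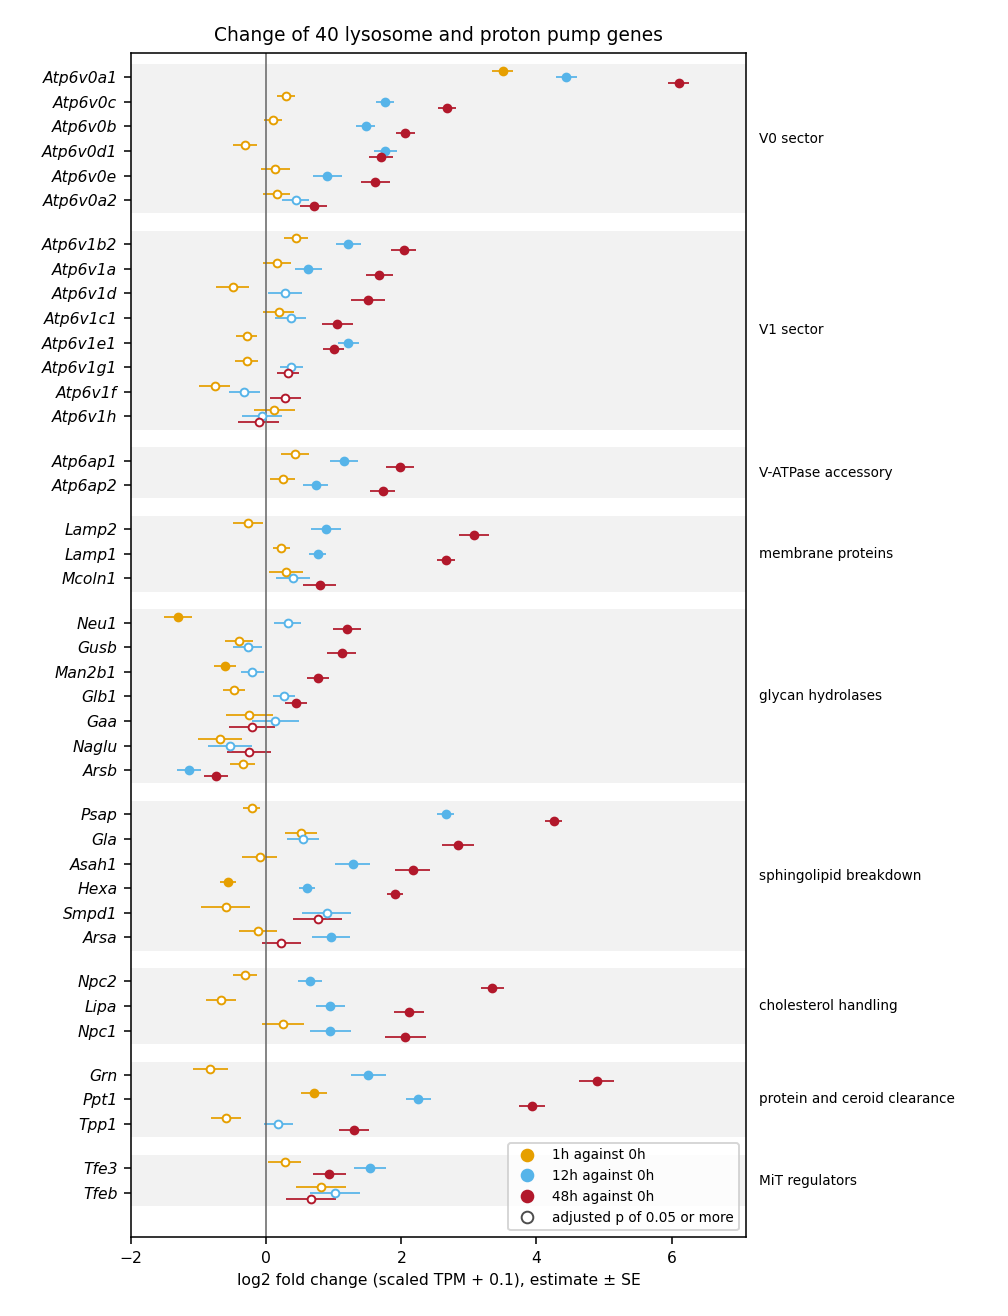
Log2 fold change against 0h of the 40 tested genes, grouped by role, at 1h, 12h and 48h (points are limma estimates, bars their SE, open points did not pass the test). Nearly all points at 48h lie right of 0, and Atp6v0a1 alone lies beyond 3 at 1h.

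The V0 sector is the membrane part of the pump, and its subunit a, which holds the paths that protons take, showed the largest response of all 43 genes. Atp6v0a1 (chr11:101009452-101063719, GRCm38, plus strand), which encodes the a1 isoform, had a scaled TPM of 1.90, 2.55 and 1.78 at 0h, 25.1, 25.3 and 22.4 at 1h, 46.6, 53.7 and 40.7 at 12h and 156, 157 and 132 at 48h. The 4 time points did not overlap, and each lay above the one before. Log2 fold changes against 0h were 3.50 ± 0.16 at 1h (adjusted p = 8.35e-07), 4.44 ± 0.16 at 12h (adjusted p = 1.4e-08) and 6.10 ± 0.16 at 48h (adjusted p = 3.6e-10). The steps from 1h to 12h (0.94 ± 0.16, adjusted p = 0.00141) and from 12h to 48h (1.66 ± 0.16, adjusted p = 2.21e-05) also passed the limma test.

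The other isoforms of subunit a had smaller fold changes at 48h. Atp6v0a2, the a2 isoform, had 2.71, 1.79 and 2.79 at 0h and 4.67, 3.27 and 4.03 at 48h, with a log2 fold change of 0.70 ± 0.20 (adjusted p = 0.0137). Without replicate 2 of 0h or replicate 1 of 48h its adjusted p was 0.0530 at most and the call was lost. Tcirg1, the a3 isoform, which is not among the 43 genes, had 4.95, 4.86 and 7.26 at 0h and 22.4, 26.8 and 27.2 at 48h, an increase of 2.16 ± 0.21 (adjusted p = 6.36e-06). The order of the isoforms changed. Of the summed TPM of the 3 genes, Atp6v0a1 took 20.9% ± 6.39 (SD, n = 3) at 0h, 71.7% ± 4.33 after 1h, 75.6% ± 4.21 after 12h and 83.3% ± 2.22 after 48h. Tcirg1 went from 55.3% ± 5.25 at 0h, when it was the most abundant of the 3 in every library, to 14.4% ± 2.21 at 48h, and Atp6v0a2 from 23.8% ± 4.46 to 2.26% ± 0.439. Shares within a library do not depend on the scaling.

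**Figure D2:**
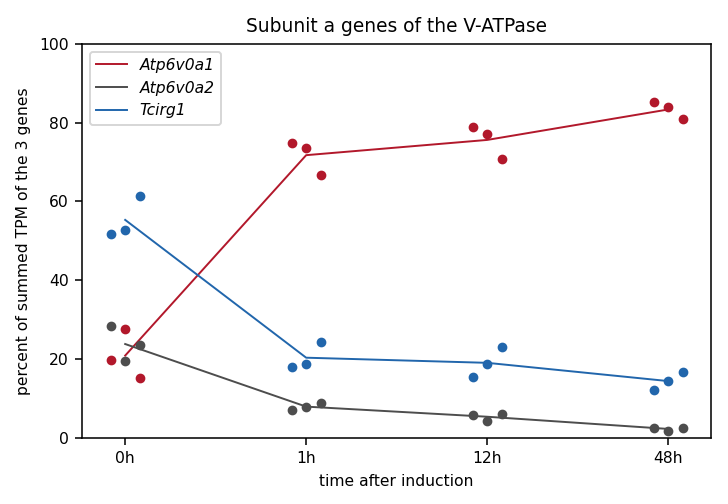
Share of the summed TPM of Atp6v0a1, Atp6v0a2 and Tcirg1 taken by each gene (percent) in each library by time after induction, with lines through the means of 3 libraries. Atp6v0a1 and Tcirg1 changed places between 0h and 1h, and the libraries of 0h and 1h did not overlap for either gene.

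The remaining V0 genes responded later. Atp6v0c, the proteolipid of the rotating ring, had 9.33, 10.4 and 11.3 at 0h, 11.9, 12.2 and 14.0 at 1h, 33.8, 34.6 and 36.6 at 12h and 60.2, 62.2 and 77.6 at 48h, with log2 fold changes of 1.75 ± 0.13 at 12h (adjusted p = 3.01e-06) and 2.67 ± 0.13 at 48h (adjusted p = 3.87e-08). The pseudogene Atp6v0c-ps2 was listed at 3.72 to 33.2 in the 12 libraries, so reads may be shared between the 2 genes and the level of Atp6v0c is uncertain. Atp6v0b, another proteolipid of the ring, increased by 2.06 ± 0.14 at 48h, and Atp6v0e, a small membrane subunit, by 1.61 ± 0.22. Both increased at 12h and again by 48h. Atp6v0d1, which joins the ring to the rotor shaft, had 3.97, 3.83 and 4.0 at 0h, 13.1, 14.1 and 13.6 at 12h and 10.1, 14.2 and 15.3 at 48h. It had reached its level by 12h: the difference between 48h and 12h was -0.06 ± 0.17 (adjusted p = 0.852). Its paralog Atp6v0d2, known from osteoclasts and macrophages, was listed at 0 in all 12 libraries, as was no other of the 43 genes.

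In the V1 sector 5 of 8 genes were higher at 48h and 3 did not pass the test. The subunits of the catalytic head were among the 5. Atp6v1b2, subunit B, had 9.84, 6.40 and 7.53 at 0h and 27.3, 32.0 and 38.5 at 48h, with a log2 fold change of 2.03 ± 0.18 (adjusted p = 3.91e-06). Atp6v1a, the subunit A that binds ATP, increased by 1.68 ± 0.20 (adjusted p = 4.21e-05). Of the rotor subunits, Atp6v1d increased by 1.51 ± 0.25 (adjusted p = 0.000402), while Atp6v1f had 10.5, 10.7 and 10.8 at 0h and 12.2, 10.5 and 17.2 at 48h, groups that overlap (log2 difference 0.28 ± 0.23, adjusted p = 0.34). Of the stalk subunits, Atp6v1c1 increased by 1.05 ± 0.23 (adjusted p = 0.00303) and Atp6v1e1 by 1.00 ± 0.15 (adjusted p = 0.00025), whereas the difference was 0.32 ± 0.16 for Atp6v1g1 (adjusted p = 0.14, or 0.0433 without replicate 2 of 48h). Atp6v1h, the regulatory subunit, differed by -0.11 ± 0.30 (adjusted p = 0.807), with a spread at 0h from 3.19 to 7.25 that leaves room for a change of either sign.

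The accessory proteins of the pump increased with it. Atp6ap1 (Ac45), an assembly factor, had 7.55, 8.59 and 6.75 at 0h and 24.4, 27.5 and 41.5 at 48h (log2 fold change 1.98 ± 0.21, adjusted p = 1.38e-05). Atp6ap2, also known as the prorenin receptor, had 2.33, 1.95 and 2.54 at 0h and 9.0, 7.36 and 6.88 at 48h (1.72 ± 0.18, adjusted p = 1.51e-05). Summed over subunits, the sectors increased unequally. The V0 sum was 32.2 ± 1.60 (SD, n = 3) at 0h and 282 ± 3.35 at 48h, a ratio of 8.76, and without Atp6v0a1 the ratio was 4.44. The V1 sum was 50.6 ± 2.98 at 0h and 106 ± 6.44 at 48h, a ratio of 2.09. The difference between the sectors was not tested.

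**Figure D3:**
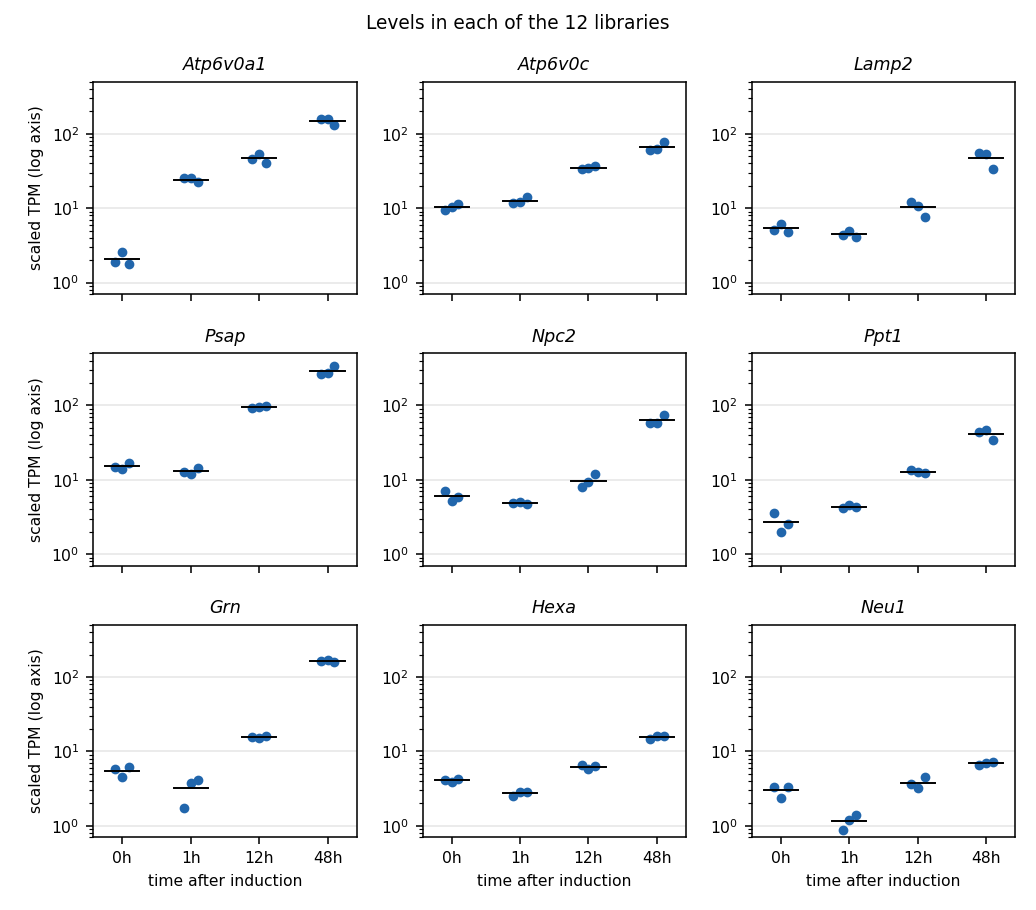
Scaled TPM (log axis) of 9 genes in each of the 12 libraries by time after induction, with lines at the mean of 3 libraries. Atp6v0a1 is far above its 0h level at 1h, Psap and Ppt1 increase strongly by 12h, Grn, Npc2 and Lamp2 mostly between 12h and 48h, and Hexa and Neu1 dip at 1h.

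Membrane proteins of the lysosome followed. Lamp2, a membrane glycoprotein that also takes part in selective autophagy, had 5.14, 6.21 and 4.85 at 0h, 4.33, 4.93 and 4.13 at 1h, 12.2, 10.8 and 7.70 at 12h and 55.2, 53.5 and 33.4 at 48h. Lamp1, its close relative, had 8.21, 9.80 and 8.16 at 0h, 11.1, 9.39 and 10.1 at 1h, 15.8, 14.0 and 14.7 at 12h and 56.8, 61.1 and 49.6 at 48h. For both genes every 48h library lay above every earlier one, and most of the change came after 12h. Log2 fold changes at 48h were 3.08 ± 0.22 for Lamp2 (adjusted p = 6.89e-07) and 2.66 ± 0.13 for Lamp1 (adjusted p = 3.26e-08). Mcoln1, a calcium channel of the lysosome (TRPML1), increased by 0.79 ± 0.25 (adjusted p = 0.0221). That call was lost without replicate 2 or 3 of 0h or of 48h (adjusted p from 0.0556 to 0.0759). The tetraspanin Cd63 was listed at 0 in all libraries of 0h and 48h and at 0.218 or less in the others, and was not tested. Since Cd63 is expressed in most cells, its 0 is given only as listed.

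The glycan hydrolases were the group with the weakest response. Of 8 genes 7 were tested, and at 48h 4 were higher, 1 was lower and 2 did not pass the test, with a median log2 fold change of 0.44. Neu1, the lysosomal sialidase, had 3.29, 2.39 and 3.30 at 0h, 0.886, 1.20 and 1.38 at 1h, 3.61, 3.20 and 4.46 at 12h and 6.59, 7.0 and 7.19 at 48h. It fell below its 0h level at 1h and rose above it by 48h, with no overlap of either group with 0h. Log2 fold changes were -1.31 ± 0.20 at 1h (adjusted p = 0.00201), 0.32 ± 0.20 at 12h (adjusted p = 0.262) and 1.20 ± 0.20 at 48h (adjusted p = 0.000502). With the TPM as deposited the decrease at 1h was -0.69 and did not pass the test. Man2b1, an α-mannosidase, had 4.40, 5.54 and 4.42 at 0h, 2.65, 3.70 and 2.99 at 1h and 7.93, 8.0 and 8.60 at 48h, a lower level at 1h (-0.61 ± 0.17, adjusted p = 0.0417) and a higher one at 48h (0.77 ± 0.17, adjusted p = 0.00287). With the TPM as deposited its difference at 1h was 0.032, so the decrease rests on the scaling, and without 1 of 7 libraries (any of 0h, replicate 1 or 3 of 1h, replicate 3 of 12h or replicate 2 of 48h) its adjusted p was 0.0509 to 0.143. After rescaling without the 20 most abundant genes the difference was -0.45 and the call was lost too (limma adjusted p = 0.249).

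Gusb, the β-glucuronidase that degrades glycosaminoglycans, increased by 1.12 ± 0.21 at 48h (adjusted p = 0.00121), and by 1.39 ± 0.21 over the step from 12h (adjusted p = 0.000758). Glb1, the β-galactosidase, increased by 0.44 ± 0.16 (adjusted p = 0.0445) and lost the call without replicate 1 or 2 of 0h or of 48h (adjusted p from 0.0849 to 0.128). Arsb (arylsulfatase B), which removes sulfate from dermatan and chondroitin sulfate, was the gene that decreased. It had 2.43, 2.14 and 1.94 at 0h, 1.66, 1.73 and 1.64 at 1h, 0.966, 0.997 and 0.820 at 12h and 1.23, 1.49 and 1.07 at 48h, and its 12h and 48h libraries all lay below those of 0h (log2 fold change -1.14 ± 0.18 at 12h, adjusted p = 0.0007, and -0.74 ± 0.18 at 48h, adjusted p = 0.00562). Genes on the opposite strand overlap 39.9% of its exon bases and were listed at or near 0. Gaa, which degrades glycogen, had 2.51, 4.50 and 3.43 at 0h and 3.29, 1.54 and 4.85 at 48h (-0.21 ± 0.35, adjusted p = 0.663). Naglu, which acts on heparan sulfate, differed by -0.25 ± 0.33 (adjusted p = 0.569). In neither gene was a difference detectable beyond the spread between libraries. Sgsh, another heparan sulfate enzyme, was listed at 0 or at most 0.268 and was not tested.

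Among the genes of sphingolipid breakdown, Psap stood out by its level. It encodes prosaposin, the precursor of the saposins that present lipids to the hydrolases. Its scaled TPM was 14.7, 14.1 and 16.7 at 0h, 12.7, 11.9 and 14.5 at 1h, 93.2, 94.3 and 99.6 at 12h and 266, 274 and 336 at 48h. It was the most abundant of the 43 genes both at 0h and at 48h, when it made up 24.3% of their summed level. The log2 fold change was 2.65 ± 0.13 at 12h (adjusted p = 1.45e-07) and 4.25 ± 0.13 at 48h (adjusted p = 1.31e-09), with no overlap of either group with 0h.

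Hexa, the α subunit of β-hexosaminidase, which degrades the ganglioside GM2, had 4.07, 3.89 and 4.26 at 0h, 2.47, 2.86 and 2.83 at 1h, 6.51, 5.83 and 6.36 at 12h and 14.5, 16.2 and 16.1 at 48h. The 4 groups did not overlap, with the lowest at 1h. Log2 fold changes were -0.57 ± 0.12 at 1h (adjusted p = 0.0123), 0.60 ± 0.12 at 12h (adjusted p = 0.00315) and 1.91 ± 0.12 at 48h (adjusted p = 2.48e-07). With the TPM as deposited the difference at 1h was 0.072, so here too the early decrease rests on the scaling, and with replicates 1 and 2 alone its adjusted p was 0.0659. After rescaling without the 20 most abundant genes the difference was -0.41 and the call was lost too (limma adjusted p = 0.176). Gla, an α-galactosidase, had 0.649, 0.369 and 0.499 at 0h, 0.638, 0.665 and 1.06 at 12h and 4.33, 4.15 and 4.03 at 48h, and its increase of 2.84 ± 0.24 (adjusted p = 2.15e-06) came after 12h. Asah1 (acid ceramidase) increased by 1.28 ± 0.26 at 12h and 2.17 ± 0.26 at 48h (adjusted p = 3.97e-05). Arsa, which removes sulfate from sulfatide, had 0.978, 1.01 and 1.43 at 0h, 2.49, 2.06 and 2.30 at 12h and 0.816, 1.65 and 1.72 at 48h. It was higher at 12h (0.96 ± 0.29, adjusted p = 0.0259, or 0.0661 to 0.0810 without replicate 1 or 2 of 0h or replicate 1 or 3 of 12h) and was not called at 48h (0.22 ± 0.29, adjusted p = 0.559), and the difference between 48h and 12h did not pass the test either (-0.74 ± 0.29, adjusted p = 0.0931). Smpd1 (acid sphingomyelinase) had 0.581, 1.76 and 0.820 at 0h and 1.31, 2.46 and 1.48 at 48h, groups that overlap through replicate 2 of 0h (0.76 ± 0.36, adjusted p = 0.107, or 0.0116 without that library).

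The 3 genes of cholesterol handling all increased by 12h and further by 48h. NPC2 takes cholesterol up inside the lysosome, NPC1 passes it through the membrane, and the acid lipase encoded by Lipa releases it from its esters. Npc2 had 7.15, 5.23 and 5.95 at 0h, 4.87, 4.96 and 4.74 at 1h, 7.96, 9.32 and 11.9 at 12h and 57.3, 57.9 and 74.1 at 48h, so that 48h stood far above the rest (3.35 ± 0.17 against 0h, adjusted p = 5.53e-08, and 2.70 ± 0.17 against 12h, adjusted p = 1.48e-06). Lipa had 2.37, 1.46 and 1.57 at 0h, 1.06, 0.883 and 1.30 at 1h, 3.73, 3.93 and 2.92 at 12h and 8.41, 8.55 and 7.04 at 48h, an increase of 2.12 ± 0.22 (adjusted p = 1.18e-05). Npc1 increased by 2.06 ± 0.31 (adjusted p = 0.000208) from a lower level of 1.13 ± 0.402 (SD, n = 3) at 0h. The calls at 12h were lost for Npc2 without replicate 2 of 0h or replicate 3 of 12h (adjusted p from 0.0542 to 0.0612), and for Npc1 without replicate 3 of 0h or of 1h or any library of 12h (0.0534 to 0.129).

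The genes of protein and ceroid clearance, whose loss in humans causes neuronal ceroid lipofuscinosis, increased strongly. Grn encodes progranulin, a secreted protein that is also processed in lysosomes. It had 5.73, 4.46 and 6.21 at 0h, 1.75, 3.75 and 4.10 at 1h, 15.8, 15.0 and 16.0 at 12h and 162, 169 and 159 at 48h. Psap had gained 2.65 of its 4.25 by 12h, whereas Grn increased by 1.51 ± 0.26 at 12h (adjusted p = 0.00123) and by a further 3.38 ± 0.26 from 12h to 48h (adjusted p = 5.16e-06), to 4.89 ± 0.26 in all (adjusted p = 6.7e-08). Ppt1, which removes palmitate from proteins, had 3.53, 2.0 and 2.55 at 0h, 4.14, 4.55 and 4.36 at 1h, 13.6, 12.7 and 12.4 at 12h and 43.6, 47.0 and 34.6 at 48h. Besides Atp6v0a1 it was the only one of the 40 genes called higher at 1h (0.71 ± 0.19, adjusted p = 0.038), a call lost without replicate 2 or 3 of 0h or any library of 1h or 12h (adjusted p from 0.0527 to 0.122), and it reached 3.93 ± 0.19 at 48h (adjusted p = 3.32e-08). Tpp1, a tripeptidyl peptidase, increased by 1.30 ± 0.22 (adjusted p = 0.000541). Together the 20 hydrolase and lipid-handling genes summed to 68.6 ± 1.88 (SD, n = 3) at 0h, 53.6 ± 2.45 after 1h, 183 ± 7.28 after 12h and 655 ± 45.8 after 48h, and the 17 V-ATPase genes to 92.7 ± 3.38, 116 ± 3.95, 229 ± 8.37 and 427 ± 13.2. The first sum at 48h was 9.54 times that of 0h and the second 4.60 times, and these sums were not tested. Atp6v0a1, Psap and Grn carried a large part of them: the sum of the other 40 genes was 3.70 times its 0h value.

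The MiT factors themselves changed in a different pattern. Tfeb had 1.53, 3.79 and 4.06 at 0h, 5.12, 5.78 and 7.14 at 12h and 4.53, 3.02 and 7.26 at 48h, with overlap at 48h and no call at any time (0.67 ± 0.37 at 48h, adjusted p = 0.167). At 12h its difference was 1.03 ± 0.37 (adjusted p = 0.0579), and it passed the test without replicate 3 of 0h or replicate 2 or 3 of 48h (0.0403 to 0.0460). Tfe3 had 2.35, 3.24 and 2.23 at 0h, 2.48, 4.04 and 3.06 at 1h, 5.89, 9.16 and 8.34 at 12h and 4.54, 4.43 and 6.24 at 48h, and was higher at 12h (1.54 ± 0.24, adjusted p = 0.000671) and at 48h (0.93 ± 0.24, adjusted p = 0.00792). The 2 other factors of the family, which are not among the 43 genes, increased from low levels. Mitf had 0.145, 0.0542 and 0.0119 at 0h and 1.62, 1.70 and 1.69 at 48h (3.45 ± 0.37, adjusted p = 1.56e-05), and Tfec, known from macrophages, was listed at 0 in all 0h libraries and had 3.25, 2.04 and 2.05 at 48h (adjusted p = 3.14e-07). RNA levels do not show where the factors are in the cell, which is how TFEB and TFE3 are mainly controlled.

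Other genes of the lysosome, in lists made for comparison, were counted in the same way. Beside these counts, 24.6% of all 16415 genes were higher at 48h and 21.9% were lower. Of 29 tested hydrolases outside the 43, 21 were higher at 48h and 1 lower, with a median log2 fold change of 1.02, among them Fuca1 (3.06 ± 0.25) and Rnaset2b (1.99 ± 0.16). Fuca1 removes fucose from glycans. The hyaluronidase gene Hyal2 fell, with a log2 fold change of -1.48 ± 0.35 (adjusted p = 0.00475). Of 34 tested membrane proteins 22 were higher and 1 lower (median 1.20), led by Cd68 (3.33 ± 0.21), which is also a macrophage marker, Cd164 (2.78 ± 0.19) and the metal transporter Slc11a1 (2.74 ± 0.37), whose relative Slc11a2 fell (-0.99 ± 0.30). Of 14 tested genes for the mannose 6-phosphate tag and for sorting, 9 were higher and 3 lower (median 0.74). The number lower was near the share of all genes. Sumf1, which activates the sulfatases, increased by 2.50 ± 0.28, Vps11 by 1.30 ± 0.23 and Gnptg by 1.14 ± 0.29, while Gga2 (-2.60 ± 0.29), an adaptor that sorts hydrolases at the Golgi, Gnptab (-0.90 ± 0.20), which starts the tag, and Vps16 (-0.63 ± 0.17) fell. Of 18 tested MiT and lysosomal mTORC1 genes 11 were higher and 2 lower (median 0.72). Among these Fnip1 (1.69 ± 0.24) and Rragc (1.32 ± 0.25) rose with Tfec, and Mtor, the kinase itself, fell with -2.21 ± 0.17 (adjusted p = 1.03e-06). Of the 9 V-ATPase subunits outside the 43, 3 were tested and 2 were higher, and 6 were listed at 0 in all 48h libraries (Atp6v0a4, Atp6v1b1, Atp6v1c2, Atp6v1e2, Atp6v1g3 and Atp6ap1l).

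PCHi-C gave the contacts of 41 of the 43 promoters, since no captured fragment held a start site of Arsb or Atp6ap2. Each time point has 1 merged list of called interactions, so these lists allow no replicate check and no test. A contact that is not listed may still exist. The paper compared its replicates and tested for differential contacts, and those results were not used here. The lists also differ in form. The 0h list carries scores of the caller and the later lists do not. At 0h 138769 lines gave as many interactions, and at 48h 152589 lines gave 144072. The paper states a score cut-off for calling interactions and reports calls for each time point. Whether the later lists follow that cut-off could not be checked from them, which limits every comparison with 0h. In the order of time the lists held 138769, 137836, 131598 and 144072 interactions, of which 424, 483, 426 and 485 belonged to the 41 promoters. Between 0h and 48h, 14 of the 40 promoters with contacts at either time (35.0%) had more contacts in number, against 45.2% of all genes with contacts, and 20 (50.0%) had fewer, against 43.9%. Between 0h and 1h, 21 of 41 had more (51.2%, against 45.4%) and 15 fewer (36.6%, against 42.1%), and between 0h and 12h 16 of 40 had more (against 44.7%) and 19 fewer (against 44.3%). Of the 424 contacts at 0h, 49.8% were listed again at 48h, against 55.8% for all genes, and 71.0% against 78.4% when a fragment within 10 kb was accepted.

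Contacts were also counted for the genes whose RNA increased. Of 30 genes higher at 48h with contacts, 10 had more, 15 fewer and 5 the same number. No such count was made over all genes higher at 48h, so these numbers have no matching background. Atp6v0a1, with the largest increase, had 3 listed contacts before induction, then 17, 7 and 4 in the order of time, and none of the first 3 was listed at 48h. Of its 17 contacts at 1h, 10 were listed at no other time. The fragments at chr11:100980944-100988049 and chr11:100988050-100993432, between 17.6 and 23.8 kb upstream of the promoter fragment by their centres, were listed at 1h, 12h and 48h but not at 0h. Psap had 3, 6, 5 and 4 contacts, Grn 12, 9, 11 and 11, and Npc2 10 at each time point. The numbers changed little, but the fragments did: at 48h none of the 3 contacts of Psap at 0h, 3 of the 10 of Npc2 and 8 of the 12 of Grn were listed again. The captured fragment of Grn also holds a start site of Fam171a2, and that of Npc2 a start site of Isca2. Contacts of the genes on 1 fragment cannot be told apart. Atp6v0c had 22, 76, 27 and 20 contacts, with the peak at 1h, and its 2 captured fragments also hold the start sites of Amdhd2 and Tbc1d24.

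**Figure D4:**
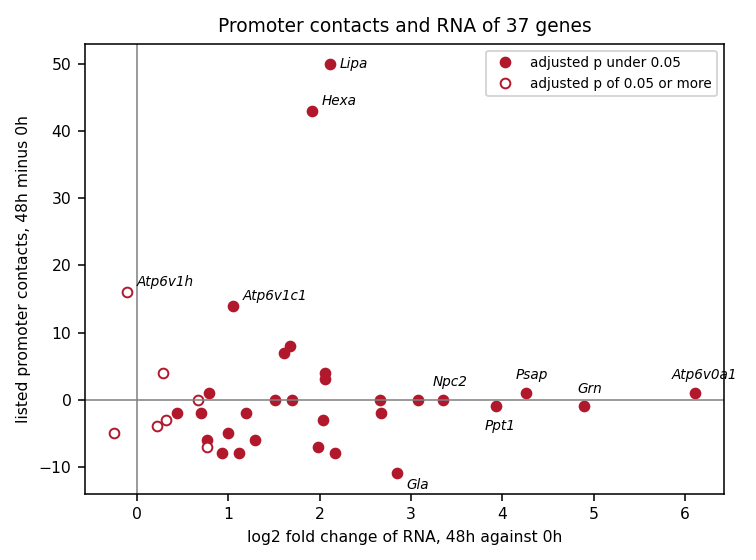
Difference in the number of listed promoter contacts (48h minus 0h) against the log2 fold change of RNA (48h against 0h) for the 37 tested genes with contacts. Most genes lie within about 10 contacts of 0, and Lipa and Hexa lie far above the rest.

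Hexa and Lipa gained the most contacts by 48h. The promoter fragment of Hexa (chr9:59538675-59541937) had 4 listed contacts before induction, 8 after 1h, again 8 after 12h and 47 after 48h. All 4 contacts of 0h were listed at 48h, and 36 of the 47 were listed at 48h and at no other time. At 48h 42 of the 47 fragments lay upstream, from 44.5 to 257 kb away, in a nearly unbroken series that holds start sites of Adpgk, Bbs4 and Arih1, and 5 lay downstream, the farthest at Pkm, 116 kb away. The fragment also holds the start site of Tmem202, which was listed at 0.183 or less in every library, and contacts of the 2 genes cannot be told apart. Lipa (promoter fragment chr19:34523618-34531256) had 33, 22, 50 and 83 contacts, of which 28 of the 33 at 0h were kept at 48h and 19 were listed at 12h and 48h but not before. They lay on both sides, 41 upstream and 42 downstream at 48h and up to 405 kb away, on fragments with start sites of Fas, Acta2, Stambpl1, Ankrd22, Pank1 and the interferon-induced genes Ifit1, Ifit1bl2 and Ifit3b. Without these 2 genes the other 39 promoters had 387, 453, 368 and 355 contacts.

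**Figure D5:**
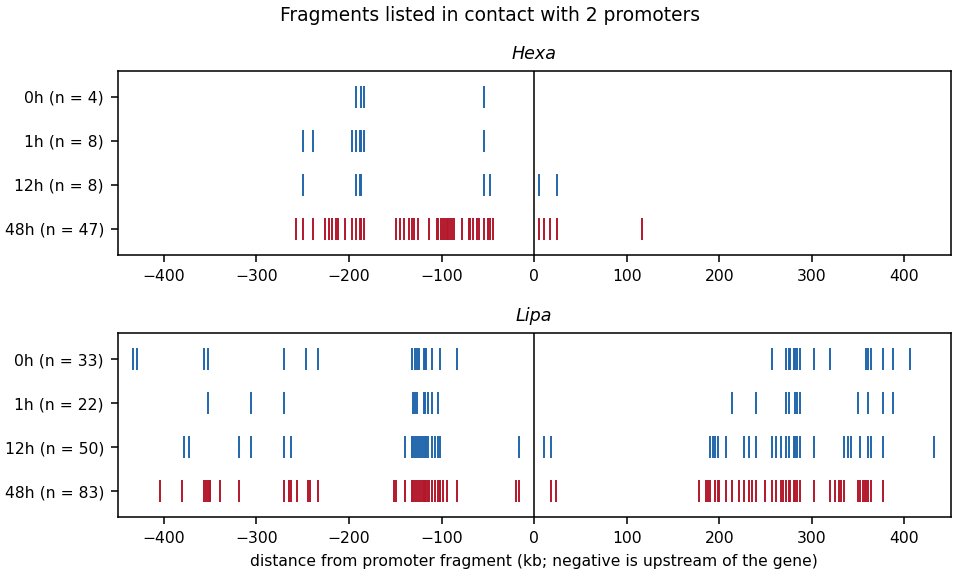
Fragments listed in contact with the promoter fragments of Hexa and Lipa at each time point, by distance from the promoter fragment (kb, centre to centre, negative upstream of the gene), each tick 1 fragment. Hexa has a dense upstream series at 48h, of which few fragments are listed earlier, and Lipa fills in on both sides from 12h on.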

How the data were processed

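RNA-seq of 12 libraries and PCHi-C of 4 time points were analysed, and Hi-C was not used. Per the labels and the study's methods, the authors trimmed reads (Trim Galore 0.6.2), mapped them to mm10 (the submitters' processing notes name HISAT2 2.1.0 and RSEM) and deposited TPM per gene. All 55450 gene IDs matched GENCODE M21 (Ensembl 96, GRCm38). The kit does not mark strand, so reads of genes that overlap on opposite strands cannot be told apart. Of the 43 genes, 13 share exon bases with another gene, among them Glb1, whose overlap with Tmppe is on the same strand. The authors merged 2 PCHi-C replicates and ran CHiCAGO on them. In the deposited 0h list each pair has a score of that program, and in the other lists a whole number whose unit is not given in the sources used here. Neither was used.

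TPM were divided by median-of-ratios factors over 11148 genes, because a ribosomal RNA share that differs between libraries can shift all other TPM. The factors did not follow that share within 0h or 1h. There replicate 3 had the lowest share (76.9% and 70.3%) and also the lowest factor (0.842 and 1.33). The source of the differences in the factors was not tested. Values of log2(scaled TPM + 0.1) of the 16415 genes whose mean TPM was 0.1 or more were fitted with limma (4 time points, 12 libraries, 1 model, eBayes with trend), with Benjamini-Hochberg adjustment over all genes. Fold changes of low genes are understated on this scale. The fit was also run on simulated data with independent noise and few changed genes. These settings differ from the data, so that run does not check the results here. Contacts were counted per gene over captured fragments with one of its GENCODE start sites. Versions were R 4.3.3, limma 3.58.1, Python 3.11.15, numpy 2.4.6, pandas 2.3.3 and matplotlib. The 43 genes and the lists were chosen with earlier results of these data known. Named are all 43 genes, the 3 largest increases and decreases at 48h of each further list among called genes with a mean scaled TPM of at least 1, and Tcirg1, Mitf and Tfec. One gene that this rule names is not reported here. Alternatives varied scaling, pseudocount, filter, trend, libraries, replicate block and fold threshold.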

Additional observations from a re-analysis of the deposited data

Results flagged for a closer look

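The effects of Man2b1, Neu1 and Hexa, against 0h, went in opposite directions at 1h and at 48h, and the difference between the effects was tested as the contrast of 48h against 1h in limma with Benjamini-Hochberg adjustment. It was 2.50 ± 0.20 on the log2 scale for Neu1 (-1.31 at 1h and 1.20 at 48h, adjusted p = 2.07e-06), 2.48 ± 0.12 for Hexa (-0.57 and 1.91, adjusted p = 4.24e-08) and 1.38 ± 0.17 for Man2b1 (-0.61 and 0.77, adjusted p = 5.42e-05). These 3 genes were picked because they passed the test in both directions in the same libraries. A positive contrast was therefore set in advance, and its adjusted p adds no separate support. All 3 decreases at 1h lost their call with the TPM as deposited, and those of Man2b1 and Hexa also after rescaling without the 20 most abundant genes. Groups of 3 libraries are too small for a search for single libraries that stand apart.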

How the results depend on the processing

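With the TPM as deposited, 16 genes were called at 1h (5 with scaling) and 16 from 1h to 12h (26 with scaling), and the differences at 1h were 0.032 for Man2b1 and 0.072 for Hexa, opposite to those with scaling, as no factor then removes the shift of all genes. The sums at 48h were then 3.45 times (V-ATPase) and 7.17 times (hydrolase and lipid-handling genes) their 0h values. At 1h, 3 genes were called after rescaling without the 20 most abundant genes, 3 without the trend, 2 beyond a 2-fold change, and 3 to 6 with 1 library left out, 3 without replicate 2 or 3 of 0h, replicate 1 of 1h or replicate 3 of 12h. The cause was not tested. A 2-fold threshold left 13 genes at 12h, 15 from 1h to 12h and 15 from 12h to 48h, by its construction. Of the contacts at 0h, 71.0% recurred at 48h when a fragment within 10 kb was accepted.

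Leaving out 1 library gave 19 to 24 genes at 12h, 30 to 32 at 48h, 19 to 26 from 1h to 12h and 20 to 24 from 12h to 48h. Of the 32 genes called at 48h, 24 kept their direction and call in all 23 alternatives, as did 18 of 23 at 12h and 1 of 5 at 1h (Atp6v0a1). No label names pairs of libraries across times, and replicate numbers were not taken as pairs. The columns of replicate 3 at all times are numbered after those of replicates 1 and 2. What this numbering stands for is not given. Of 18 same-numbered pairs 7 correlated over 0.1 (5 of them between libraries of replicate 3, up to 0.257), and of 36 other pairs 1 did. With the replicate block the calls numbered 5, 24 and 31 after 1h, 12h and 48h. With replicates 1 and 2 alone, chosen after seeing the data, 3 genes were called at 1h, 18 at 12h, 28 at 48h, 15 from 1h to 12h and 19 from 12h to 48h, with fewer samples in the fit. Atp6v1a lost its call at 12h without 1 of 5 libraries (replicate 2 or 3 of 0h or of 12h, or replicate 2 of 1h, adjusted p of limma from 0.0502 to 0.124), and at 1h Atp6v1f passed without replicate 3 of 48h (0.0340) and Grn, lower, without replicate 3 of 1h (0.0444). Depth was not used, so the limit it sets on low genes such as Naglu, Smpd1 and Sgsh was not assessed.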
